A study of Mus musculus with 6 samples.

Results

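Inflammasome components are the sensors, adaptor, proteases and pore-forming protein with which macrophages answer microbial products and cell damage. They were followed here as 9 genes of 49315 in the count tables: Nlrp3, Nlrp1b, Nlrc4, Aim2, Pycard, Casp1, Casp4, Gsdmd and Nek7. The genes were taken by their symbol in the GENCODE M21 annotation. No measured value entered that rule, but the list was drawn up with earlier results of these data known. The cells were isolated from digested liver with magnetic beads against F4/80, a surface protein of macrophages, which enriches the resident liver macrophages known as Kupffer cells. RNA was sequenced from 3 WT and 3 Lpcat3 KOMac mice, with 1 library per mouse and no treatment beyond the diet. The comparison asks which transcripts of these cells change when myeloid cells are deprived of Lpcat3, the enzyme that loads polyunsaturated fatty acids into membrane phospholipids.

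All 6 mice were adult C57BL/6N animals fed a high-fat diet (HFD, 60% fat) for 16 weeks. Both genotypes were homozygous for floxed Lpcat3. Lpcat3 KOMac mice carried in addition a LysMCre allele (Lpcat3 fl/fl LysM Cre/+), and WT mice were littermates without it (Lpcat3 fl/fl LysM +/+). Cre is placed in the lysozyme gene Lyz2 and acts in the myeloid lineage as a whole, which includes monocytes and neutrophils. The WT mice had no Cre, and the effects of Cre and of the loss of Lpcat3 cannot be told apart. There was no group on a normal diet and none exposed to an inflammasome trigger among these 6 libraries.

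An inflammasome is assembled in the cytosol when a sensor recruits the adaptor ASC, which in turn gathers procaspase-1. The active protease matures the cytokines of the interleukin-1 family and cuts gasdermin D, whose released part opens pores in the plasma membrane. In macrophages the machinery is controlled first by priming, which raises the transcripts of sensors and cytokines, and then by activation, which acts on the proteins and leaves no direct trace in mRNA. The levels below are mRNA levels and say nothing of assembly or cleavage.

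The RefSeq promoter table (build GRCm38.p6) held 11 start sites for 8 of the 9 genes, and Gsdmd was not in it. The 250 bases before each start were searched on both strands for an NF-kB site, the interferon-stimulated response element (GAAA, any 2 bases, GAAA), the PU.1 core GAGGAA and the TATA box TATAAA. An NF-kB match stood in 3 of the 11 windows and in 7.25% of 32851 mouse promoters of the same length. These windows belong to 2 of the 8 genes, 1 to Nlrp3 and 2 that overlap each other to Casp4. The PU.1 core stood in 5 of the 11 windows, before 5 genes (Nlrp3, Nlrp1b, Aim2, Pycard and Casp1), and in 23.2% of all promoters. None of the 11 windows held the interferon element or the TATA box, found in 2.98% and 12.4% of all promoters. Nek7 had 17 CG dinucleotides in its window and the other genes had 0 to 4, against a median of 6 over all promoters. Shown are the windows with an NF-kB match at Nlrp3 and at the upstream start of Casp4, the genes that have one, and the CG-rich window of Nek7, whose mRNA varied least between the mice. They lie at chr11:59541319-59541567 on the plus strand, chr9:5308599-5308827 on the plus strand and chr1:138619758-138619903 on the minus strand, each without the bases that M21 annotates as an exon of the gene. The Nek7 window lies within the gene, beside exons that M21 places further upstream. A stretch of 30 bases after its RefSeq start matched no M21 transcript of Nek7, so this start is uncertain. Capitals mark the NF-kB matches, in 1 stretch at Nlrp3 and 2 separate stretches at Casp4, and a match is a description of the letters only.
Nlrp3: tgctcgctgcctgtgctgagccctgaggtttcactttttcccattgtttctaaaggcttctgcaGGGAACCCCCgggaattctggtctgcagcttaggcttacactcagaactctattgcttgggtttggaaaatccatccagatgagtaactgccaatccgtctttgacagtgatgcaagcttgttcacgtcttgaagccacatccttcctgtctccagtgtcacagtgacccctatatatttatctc
Casp4: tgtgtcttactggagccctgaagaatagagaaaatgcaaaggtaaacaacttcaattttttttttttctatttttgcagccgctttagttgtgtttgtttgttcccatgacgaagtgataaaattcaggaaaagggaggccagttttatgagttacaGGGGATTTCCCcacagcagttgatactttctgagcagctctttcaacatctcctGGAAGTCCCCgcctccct
Nek7: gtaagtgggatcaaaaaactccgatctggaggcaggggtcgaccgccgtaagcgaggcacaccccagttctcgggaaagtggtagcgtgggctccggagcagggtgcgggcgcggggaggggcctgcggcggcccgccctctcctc

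The 6 libraries held 44954224 to 71392812 counts, and 26411 to 33663 of these fell on the 9 genes. Values of single mice are given throughout in the order of their replicate numbers, 1 to 3. Lpcat3 was at 61.2 to 85.0 CPM (counts per library size, scaled by TMM) in WT and at 19.4 to 33.3 in Lpcat3 KOMac cells, or 34.0% of the WT mean. Lyz2, in which Cre sits, was at 37.4% of the WT mean. Kupffer cell markers were abundant in every library, with 8 listed genes summing to 26549 to 37078 CPM in WT and 19575 to 28918 CPM in Lpcat3 KOMac cells. Single markers varied more, and over all mice Marco spanned 148 to 3168 CPM, Cd163 396 to 2493 CPM and Timd4 123 to 938 CPM. Each of the 8 was lowest in Lpcat3 KOMac mouse 2 and highest in WT mouse 2. None of the 8 was called, and 2 of them, Clec4f (log2 fold change -0.44, SE 0.17) and Folr2 (-0.45, SE 0.16), were lower in every Lpcat3 KOMac mouse than in every WT mouse. Of all genes tested, 5.2% were arranged in this way. The neutrophil marker Ly6g was at most 0.0637 CPM in any library, and the 7 neutrophil markers summed to 81.7 to 159 CPM in WT and 82.8 to 144 CPM in Lpcat3 KOMac cells, nearly all of it Csf3r. None of these was called, but 2 of them at low level, S100a8 (log2 fold change 0.99, SE 0.36, at most 2.19 CPM) and Cxcr2 (0.60, SE 0.33, at most 0.27 CPM), were higher in every Lpcat3 KOMac mouse than in every WT mouse. Of all genes tested, 2.29% were arranged in this direction. Csf3r, which made up nearly all of the neutrophil sum, had a log2 fold change of -0.17 (SE 0.33) and overlapped. The 5 monocyte markers summed to 77.6 to 145 and 78.4 to 148 CPM, mostly Ccr2 and Plac8, and none was called. Ccr2 (log2 fold change 0.36, SE 0.62) and Plac8 (-0.51, SE 0.43) went in opposite directions, and both overlapped. Chil3 (1.70, SE 0.62, at most 8.77 CPM) was higher in every Lpcat3 KOMac mouse, as were the 2.29% of all genes given above, and F13a1 (1.05, SE 0.40, at most 6.80 CPM) overlapped. The part of such cells in the levels of the 9 genes was not tested. Hepatocyte transcripts differed widely between libraries, and the mean log2 CPM of 5 of them was 10.67, 6.99 and 6.86 in WT and 8.65, 9.82 and 8.24 in Lpcat3 KOMac cells, a 14.0-fold span. The genotypes did not differ detectably in it (0.73 on the log2 scale, exact permutation test, two-sided p = 0.6, with 0.1 the smallest p that 3 mice against 3 allow). WT mouse 1 and Lpcat3 KOMac mouse 2 thus held the most hepatocyte RNA, and the results on the 9 genes as a set are also given without them.

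All 9 genes were expressed in every library. Per exonic length, in TPM (counts divided by exonic length, then scaled to the same total in each library), Casp1 was the most abundant at 200 ± 24.3 TPM (SD over the 6 mice), followed by Gsdmd at 143 ± 28.1 TPM. The protease and its substrate therefore stood first and second in each of the 6 libraries. Nlrp3 (58.0 ± 16.5 TPM), its partner Nek7 (53.4 ± 4.63 TPM) and Aim2 (46.0 ± 11.6 TPM) formed a middle tier. Nlrp3 was above Nek7 in 3 of 6 libraries and Nek7 above Aim2 in 5, so the order within this tier was not fixed. Lower came Nlrc4 at 23.2 ± 5.21 TPM, Pycard at 21.7 ± 4.27 TPM and Casp4 at 18.8 ± 4.43 TPM, with Nlrc4 above Pycard in 4 of 6 libraries and Pycard above Casp4 in 5. Nlrp1b was the lowest at 11.7 ± 5.18 TPM in all 6 libraries. On this scale the mRNA of the adaptor ASC, Pycard, was below that of Casp1, the protease it recruits, in all 6 libraries. The exonic length takes in every annotated exon of a gene, 3800 bases for Pycard and 3710 for Casp4 against 1497 for Casp1. A gene whose transcripts are shorter than that length has its TPM set too low. Transcript lengths in these cells were not measured, so the order of the genes depends on the annotation.

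**Figure D1:**
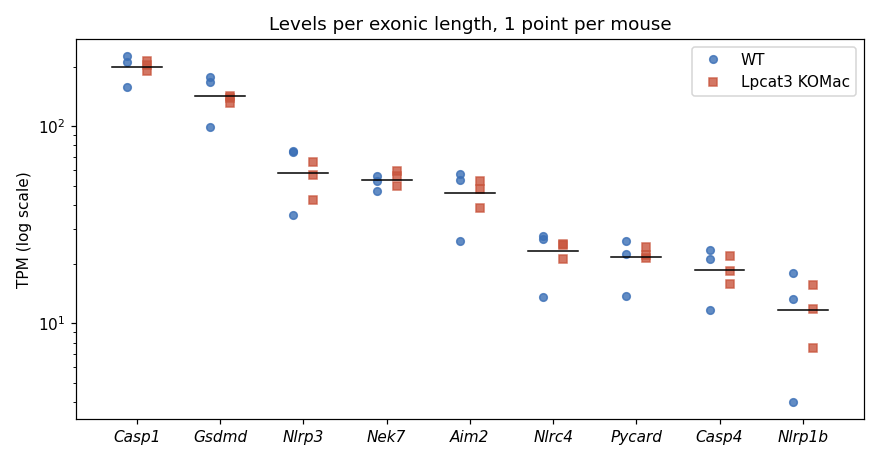
Level of each inflammasome component per exonic length, in TPM on a log axis, with 1 point per mouse (WT as circles, Lpcat3 KOMac as squares) and a bar at the mean of the 6 mice. Casp1 and Gsdmd lie above the other 7 genes in every mouse, and Nlrp1b lies lowest and is the most spread, from 3.99 to 17.9 TPM.

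None of the 9 genes was called between the genotypes: 0 had an adjusted p-value under 0.05 by edgeR's quasi-likelihood test after Benjamini-Hochberg adjustment, as had 0% of the 16134 genes tested. At an unadjusted p-value under 0.05 the count was also 0 of 9, beside 2.64% of all genes tested. DESeq2 called 0 of the 9 and 0.093% of all genes, and limma-voom called 0 genes in all. The deleted gene Lpcat3 (log2 fold change -1.56, SE 0.26) and Lyz2 (-1.42, SE 0.30) were not called by edgeR either. Their unadjusted p-values in its quasi-likelihood test were 0.0012 and 0.0035. A gene that was not called is thus not shown to be unchanged. The WT and Lpcat3 KOMac values overlapped for each of the 9, whereas 7.49% of all genes tested did not overlap, 5.2% with all Lpcat3 KOMac mice below and 2.29% with all of them above. The fitted log2 fold change, Lpcat3 KOMac against WT, was below 0 for 8 of the 9 genes with a median of -0.09, and it was below 0 for 59.9% of all genes with a median of -0.04. With total counts in place of TMM, 6 of the 9 were below 0. Because the cells were measured in bulk, fewer cells of a type and less RNA per cell cannot be told apart in any of these values.

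Nlrp3, the sensor of potassium efflux and membrane stress (chr11:59541568-59566956, plus strand), read 58.7, 106 and 105 CPM in WT and 88.2, 59.3 and 75.9 CPM in Lpcat3 KOMac mice. WT mouse 1 was the lowest of all 6, next to Lpcat3 KOMac mouse 2, and the genotypes overlapped. The log2 fold change was -0.27 (SE 0.27), the largest of the set in size, and the 95% interval ran from a level 1.92-fold lower to one 1.32-fold higher than in WT.

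Nek7, the kinase that binds NLRP3 and is needed for its activation (chr1:138482875-138620141, minus strand), read 141, 147 and 135 CPM in WT and 137, 128 and 145 CPM in Lpcat3 KOMac mice. Its highest and lowest mouse differed by 1.15-fold, the least of the 9 genes. Its log2 fold change was -0.05 (SE 0.08), with a 95% interval of 1.19-fold lower to 1.11-fold higher. Of the set, Nek7 thus gave the narrowest limits on a difference between the genotypes.

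Nlrp1b, the sensor set off when its amino-terminal part is degraded (chr11:71153102-71230733, minus strand), read 10.3, 29.6 and 39.3 CPM in WT and 24.5, 16.4 and 32.7 CPM in Lpcat3 KOMac mice. WT mice alone spanned 3.82-fold and covered all Lpcat3 KOMac values. The log2 fold change was -0.10 (SE 0.53), and the 95% interval, from 2.66-fold lower to 2.30-fold higher, left a change of 2-fold in either direction undetectable. The neighboring paralog Nlrp1a, read as a separate gene, was at 9.40 to 14.7 CPM, and how the counting split reads shared by the 2 genes is not given in the sources used here.

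Nlrc4, which signals for bacterial flagellin and secretion systems (chr17:74426295-74459108, minus strand), read 21.3, 36.3 and 37.0 CPM in WT and 31.6, 28.3 and 32.3 CPM in Lpcat3 KOMac mice. All 3 Lpcat3 KOMac values lay between WT mouse 1 and the other 2 WT mice, and the fitted difference was small, at -0.04 (SE 0.22) on the log2 scale.

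Aim2, the sensor of cytosolic double-stranded DNA (chr1:173350879-173466040, plus strand), read 37.5, 66.0 and 69.7 CPM in WT and 55.6, 46.7 and 61.3 CPM in Lpcat3 KOMac mice. The arrangement was that of Nlrc4, with WT mouse 1 below and the other WT mice above every Lpcat3 KOMac mouse, and a log2 fold change of -0.08 (SE 0.26).

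Pycard encodes the adaptor ASC (chr7:127989708-127993867, minus strand). It was at 21.4, 30.3 and 34.4 CPM in WT and at 27.9, 28.2 and 31.0 CPM in Lpcat3 KOMac mice, and it was the only member with a log2 fold change above 0 (0.02, SE 0.19). Lpcat3 KOMac mice spanned 1.11-fold and WT mice 1.61-fold. Pycard overlaps Gm45205 on the other strand by 485 bases, and that gene had at most 9 counts in any library.

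**Figure D2:**
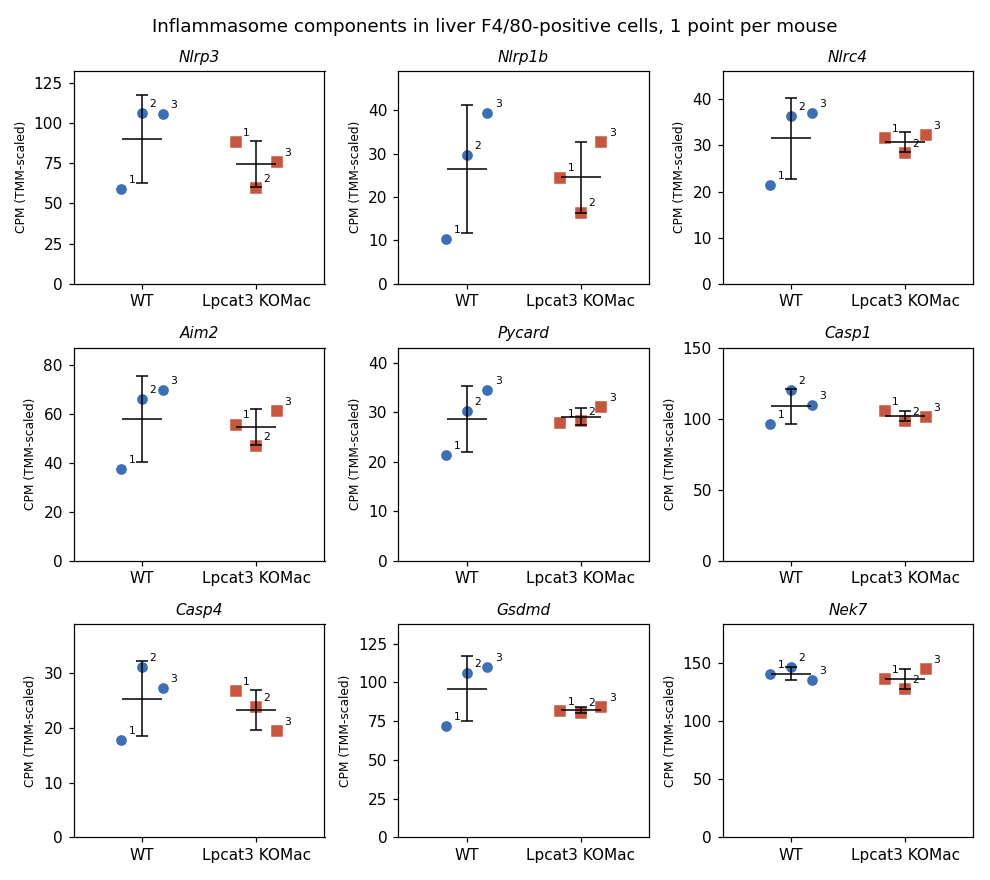
TMM-scaled CPM of the 9 inflammasome components, 1 panel per gene with an axis from 0, for WT (circles) and Lpcat3 KOMac (squares), each point 1 mouse marked with its number. Horizontal lines are means and error bars the SD of 3 mice; the genotypes overlap in every panel, and WT mouse 1 is the lowest point in all panels but that of Nek7.

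Casp1, the protease that all these sensors share (chr9:5298517-5307265, plus strand), read 96.1, 120 and 110 CPM in WT and 105, 98.7 and 101 CPM in Lpcat3 KOMac mice. The means were 109 ± 12.1 CPM and 102 ± 3.43 CPM (SD, n = 3 each), for a log2 fold change of -0.09 (SE 0.10), with a 95% interval of 1.27-fold lower to 1.12-fold higher.

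Casp4, known in the mouse as caspase-11, binds bacterial lipopolysaccharide directly and lies beside Casp1 (chr9:5308828-5336783, plus strand). It was at 17.7, 31.1 and 27.2 CPM in WT and 26.8, 23.8 and 19.5 CPM in Lpcat3 KOMac mice. The Lpcat3 KOMac mice lay within the WT range, and the log2 fold change was -0.12 (SE 0.24). Casp4 and Nlrp3, the 2 genes whose printed promoters hold an NF-kB match, overlapped between the genotypes as the other 7 genes did.

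Gsdmd encodes the pore-forming protein cut by both caspases (chr15:75862339-75867404, plus strand). It was at 72.1, 106 and 110 CPM in WT and at 81.8, 80.5 and 84.1 CPM in Lpcat3 KOMac mice. The Lpcat3 KOMac mice lay within 1.04-fold of each other, above WT mouse 1 and below the other 2 WT mice. The means were 96.0 ± 20.8 CPM and 82.1 ± 1.78 CPM (SD, n = 3 each). Gsdmd had a log2 fold change of -0.22 (SE 0.17, unadjusted p = 0.236 in edgeR's quasi-likelihood test), the smallest unadjusted p-value among the 9 genes.

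Most of the 9 genes were arranged alike across mice, in a way that did not follow genotype. WT mouse 1 held the lowest value for 8 of the 9, Nek7 being the exception, while it was the lowest library for 25.99% of all genes tested. WT mouse 1 and Lpcat3 KOMac mouse 2 were the 2 lowest libraries for 6 of the 9 and for 22.9% of all genes. Relative to each gene's mean log2 CPM over the 6 mice, the median deviation of the set was -0.43, 0.27 and 0.27 in WT and 0.02, -0.12 and 0.07 in Lpcat3 KOMac mice. The summed level of the 9 genes was 476, 672 and 668 CPM in WT and 579, 509 and 583 CPM in Lpcat3 KOMac mice. The 2 libraries with the lowest sums were the 2 with the most hepatocyte RNA, and the 2 with the highest sums were the 2 with the least. Nek7 showed no such order.

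**Figure D3:**
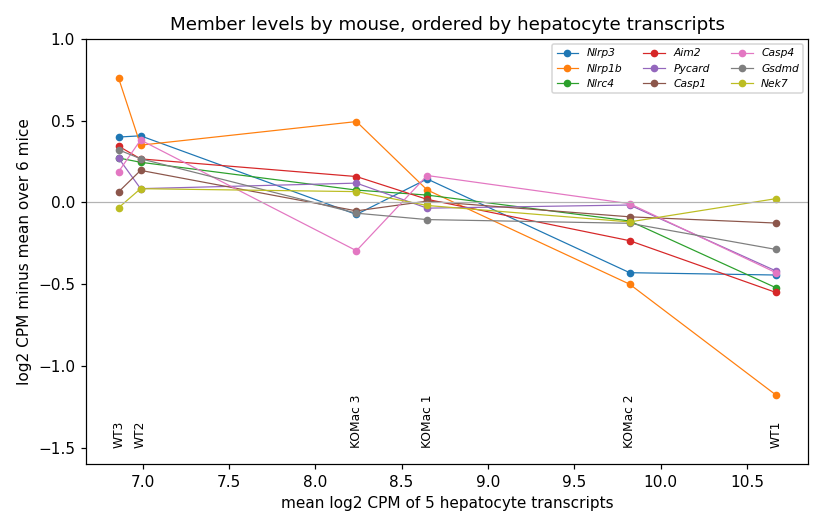
Each line follows 1 inflammasome component across the 6 mice, as log2 CPM minus its mean over the mice (vertical axis), with the mice placed by the mean log2 CPM of 5 hepatocyte transcripts (horizontal axis). WT mouse 1, at 10.67, is the lowest point for 8 of the 9 lines, and Nek7 stays within 0.12 of its mean throughout.

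Without WT mouse 1, 6 of the 9 genes (Nlrp3, Nlrc4, Aim2, Casp1, Casp4 and Gsdmd) were lower in all 3 Lpcat3 KOMac mice than in both remaining WT mice, an arrangement then found in 15.5% of all genes tested. The log2 fold changes became -0.50 (SE 0.17) for Nlrp3, -0.25 (SE 0.09) for Nlrc4 and -0.39 (SE 0.07) for Gsdmd, with unadjusted p-values of 0.0293, 0.0389 and 0.00233 in edgeR's quasi-likelihood test. None of the 9 passed the adjustment over all genes (smallest adjusted p = 0.294), and 12.3% of all genes then had an unadjusted p-value under 0.05. In this comparison all 3 Lpcat3 KOMac libraries held more hepatocyte RNA than both WT libraries, by 1.98 on the log2 scale. The same 6 genes stood below both WT mice when Lpcat3 KOMac mouse 2 was left out as well, beside 21.4% of all genes. The remaining Lpcat3 KOMac libraries (8.65 and 8.24 in mean hepatocyte log2 CPM) still held more hepatocyte RNA than the remaining WT libraries (6.99 and 6.86). This holds for every value given without both mice. The median log2 fold change of the set was -0.31 without WT mouse 1 (-0.03 over all genes) and -0.21 without both mice (-0.02 over all genes). With the hepatocyte level as a covariate in a fit of all 6 mice it was 0.04 (0.0020 over all genes). In that fit 4 of the 9 genes were below 0, and Nlrp3 was at -0.0629 (SE 0.11). An unadjusted p-value under 0.05 was found for 1 gene, Nlrp1b (0.40, SE 0.13), with an adjusted p of 0.47 in edgeR's quasi-likelihood test, beside 9.43% of all genes.

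Around the 9 genes, a list of 35 others of the pathway was read from the same fit. None of the 35 was called, 1 had an unadjusted p-value under 0.05, and 4 were lower in every Lpcat3 KOMac mouse than in every WT mouse, beside 5.2% of all genes tested in that direction. None was higher in every Lpcat3 KOMac mouse. Their median log2 fold change was -0.11, with 27 of 35 below 0.

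Among the 9 other sensors, 0 were called and 8 were below 0, with a median of -0.09. The NAIP proteins bind bacterial ligands and hand them to NLRC4: Naip5 was at 99.1, 170 and 172 CPM in WT and 143, 102 and 193 CPM in Lpcat3 KOMac mice, a log2 fold change of -0.01 (SE 0.31). WT mouse 1 and Lpcat3 KOMac mouse 2 were again the 2 lowest. Naip6 (-0.03, SE 0.31) had its lowest value in WT mouse 1, and Naip2 (-0.09, SE 0.18) did not. The Naip genes are close paralogs, so their separation by the counting is uncertain. Mefv, encoding the sensor pyrin, was at 41.3, 63.9 and 65.8 CPM in WT and 55.5, 37.7 and 50.4 CPM in Lpcat3 KOMac mice (-0.25, SE 0.23). Its log2 fold change was -0.44 (SE 0.17) without WT mouse 1, -0.29 (SE 0.09) without Lpcat3 KOMac mouse 2 as well, and -0.0925 (SE 0.10) with the hepatocyte covariate.

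A pair of sensors had their highest values in the 2 libraries where most of the 9 genes were low. Nlrp12 was at 25.9, 1.92 and 0.70 CPM in WT and 5.17, 16.1 and 2.93 CPM in Lpcat3 KOMac mice. Nlrp6, named after its values were seen, was at 37.9, 4.27 and 2.01 CPM in WT and 12.1, 18.3 and 11.3 CPM in Lpcat3 KOMac mice. Both were highest in WT mouse 1 and next highest in Lpcat3 KOMac mouse 2, as was the hepatocyte product Alb at 13054, 1205 and 1319 CPM in WT and 3131, 9289 and 3138 CPM in Lpcat3 KOMac mice. Their differences between genotypes had standard errors of 1.41 and 1.09 on the log2 scale. The part of hepatocyte RNA in these 2 levels was not tested.

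Upstream of the sensors, 0 of 10 genes were called and 8 were below 0, with a median of -0.15. Txnip, whose protein binds thioredoxin and has been linked to NLRP3, was at 507, 506 and 418 CPM in WT and 345, 391 and 405 CPM in Lpcat3 KOMac mice. Every Lpcat3 KOMac mouse was below every WT mouse, though WT mouse 3 and Lpcat3 KOMac mouse 3 were close. The log2 fold change was -0.33 (SE 0.12, unadjusted p = 0.0323 and Benjamini-Hochberg adjusted p = 1.00 in edgeR's quasi-likelihood test), and the exact permutation test gave a two-sided p = 0.1, the smallest possible. Txnip overlaps Gm15441 on the other strand by 606 bases, and that gene had at most 43 counts in any library. Leaving out single mice moved the log2 fold change of Txnip between -0.41 and -0.23.

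Panx1, a membrane channel through which ATP leaves the cell, was at 12.3, 17.1 and 12.5 CPM in WT and 10.8, 11.9 and 11.1 CPM in Lpcat3 KOMac mice (-0.30, SE 0.16). The genotypes did not overlap, by a margin that is small beside the spread among WT mice. P2rx7, the ATP-gated channel that triggers NLRP3, was at 111 to 147 CPM in WT and 91.1 to 147 CPM in Lpcat3 KOMac mice (-0.13, SE 0.21). Brcc3, which removes ubiquitin from NLRP3, was at 17.5 to 22.2 CPM over all mice (-0.0038, SE 0.12). Of the interferon-induced genes, Gbp2 (0.05, SE 0.37) and Gbp5 (-0.17, SE 0.33), which expose bacterial lipopolysaccharide to caspase-11, and the factors Irf1 (-0.20, SE 0.19) and Irf8 (0.02, SE 0.13) overlapped between the genotypes. Without WT mouse 1 and Lpcat3 KOMac mouse 2, Irf1 was at -0.48 (SE 0.08, adjusted p = 0.122 in edgeR's quasi-likelihood test) and Gbp5 at -0.61 (SE 0.26). With the hepatocyte covariate they were at -0.0971 (SE 0.16) and -0.0286 (SE 0.33).

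Among the 6 inhibitors, 0 were called and 4 were below 0. Dpp9, the peptidase that holds NLRP1 in check, was at 71.1 to 85.0 CPM in WT and 68.5 to 78.9 CPM in Lpcat3 KOMac mice (-0.05, SE 0.10). Il18bp, the secreted binder of interleukin-18, was at 570, 660 and 696 CPM in WT and 565, 516 and 570 CPM in Lpcat3 KOMac mice (-0.22, SE 0.11). Its genotypes overlapped only at WT mouse 1 and Lpcat3 KOMac mouse 3, and its log2 fold change was -0.30 (SE 0.10) without WT mouse 1 and -0.17 (SE 0.07) with the hepatocyte covariate. Il18bp overlaps Numa1 on the other strand by 80 bases, with up to 10333 counts on Numa1, so a share of its reads is uncertain.

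Of the 5 substrates and parallel caspases, 0 were called and 2 were below 0. Il1b, the cytokine precursor that priming raises, was at 80.1, 262 and 279 CPM in WT and 144, 90.5 and 167 CPM in Lpcat3 KOMac mice. WT mouse 1 was the lowest and Lpcat3 KOMac mouse 2 the next lowest, as for Nlrp3. The log2 fold change was -0.63 (SE 0.51), and from -1.02 to -0.36 after leaving out single mice. The value farthest from 0 was the one without WT mouse 1, with an unadjusted p of 0.00941 and an adjusted p of 0.294 in edgeR's quasi-likelihood test. Without Lpcat3 KOMac mouse 2 as well it was -0.80 (SE 0.11, adjusted p = 0.0829 in the same test), and with the hepatocyte covariate it was -0.13 (SE 0.07). Il18, whose precursor is made without priming, was at 50.1, 50.4 and 54.9 CPM in WT and 50.1, 71.9 and 43.2 CPM in Lpcat3 KOMac mice (0.09, SE 0.20). Casp8, which can take the place of caspase-1, was at 128 to 151 CPM and 124 to 136 CPM (-0.13, SE 0.09), and Gsdme, another gasdermin, was at 4.98 to 7.98 CPM over all mice (0.07, SE 0.26).

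Among the 5 genes of membrane rupture and repair, 0 were called and all 5 were below 0, with a median of -0.16. Chmp4b, a subunit of the ESCRT-III complex that sheds gasdermin pores, was at 262, 279 and 279 CPM in WT and 239, 223 and 256 CPM in Lpcat3 KOMac mice (-0.19, SE 0.09). Chmp3, of the same complex, was at 141, 142 and 133 CPM in WT and 127, 117 and 129 CPM in Lpcat3 KOMac mice (-0.16, SE 0.08). Both were lower in every Lpcat3 KOMac mouse without passing the test (unadjusted p = 0.0647 and 0.0902 in edgeR's quasi-likelihood test). Ninj1, which tears the membrane at the end of pyroptosis, was at 323 to 441 CPM in WT and 240 to 347 CPM in Lpcat3 KOMac mice (-0.29, SE 0.19).

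**Figure D4:**
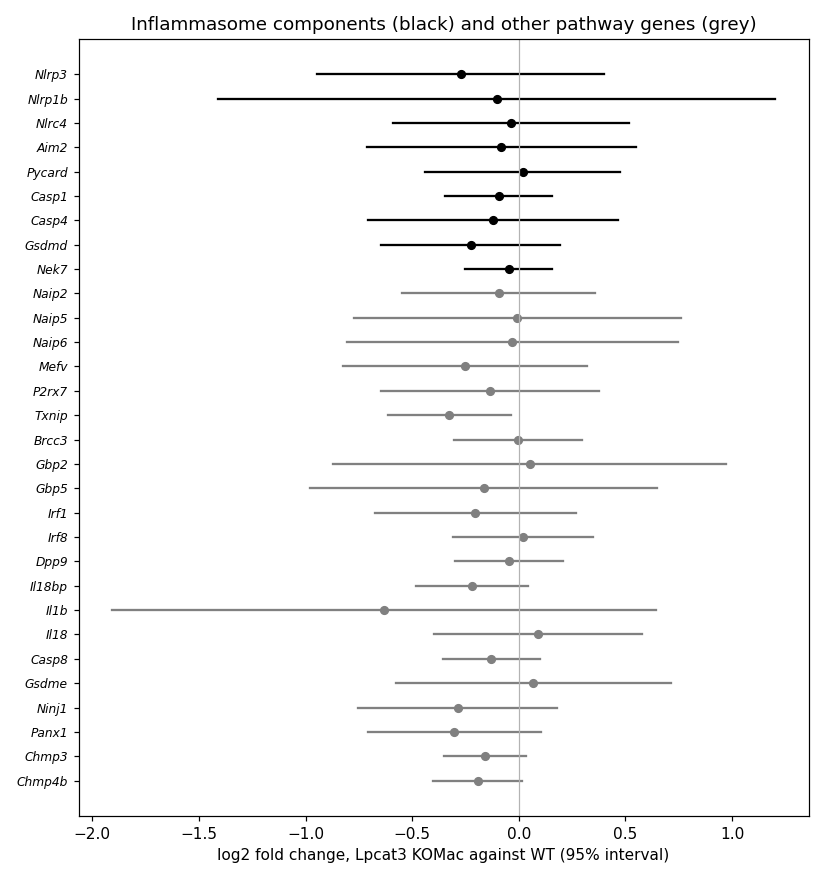
Fitted log2 fold change, Lpcat3 KOMac against WT, of the 9 inflammasome components (black) and of 21 of the 35 other pathway genes (grey), all described in the text, with 95% intervals of edgeR's quasi-likelihood fit. Nlrp12 and Nlrp6, with wider intervals (SE 1.41 and 1.09), are not drawn. Every interval drawn but that of Txnip crosses 0, and those drawn are narrow for Nek7 and Chmp3 and widest for Nlrp1b and Il1b.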

How the data were processed

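Total RNA was extracted from F4/80-positive liver cells, and poly-A libraries were made and sequenced, 1 per mouse. The authors deposited raw read counts per gene. The submitters' processing notes name Trimmomatic 0.36, STAR 2.5.2b, featureCounts of Subread 1.5.2 and GRCm38. The strand setting and the treatment of multi-mapping reads are not given in the sources used here. Of 49315 gene identifiers, 49056 were found in GENCODE M21.

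The genotypes were tested in edgeR 4.0.16 (R 4.3.3), with TMM normalization, the default filter (minimum count 10), a robust quasi-likelihood fit with genotype as the only term, and Benjamini-Hochberg adjustment over all genes tested. Genes were called at an adjusted p under 0.05. Intervals come from the same fit. TPM were computed from the counts and the deposited exonic lengths. Single values were also compared by exact permutation. DESeq2 1.42.0 and limma-voom (limma 3.58.1) served as alternatives, beside other scalings and filters, a replicate block, a hepatocyte covariate, a length offset and left-out mice. The scripts were tested on simulated data. The counts of every pair of libraries differed by more than sampling noise (chi-square per degree of freedom 40.7 to 520). That the replicates are separate mice is taken from the labels.

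The 9 genes, the gene lists, the tests and the alternatives were chosen with earlier results of these data known. Named were all 9 genes, 19 pathway genes by role, and any other listed gene that did not overlap between genotypes or had an unadjusted p under 0.05. Other marker lists were read as checks: dendritic (16.5 to 55.8 CPM in sum over all mice, mostly Clec9a), sinusoidal endothelial (795 to 1063), stellate (55.4 to 202), lymphoid (3.88 to 7.04), red cell (22.0 to 62.0) and cholangiocyte (2.80 to 15.1 in WT, 18.7 to 44.8 in Lpcat3 KOMac mice, nearly all of it Spp1). The 3 cholangiocyte markers other than Spp1 were under 1 CPM in every library. Spp1 (log2 fold change 1.81, SE 0.71, not called) was higher in every Lpcat3 KOMac mouse, as were 2.29% of all genes tested. Apart from Spp1 the list thus gave no clear cholangiocyte signal, and the cells that held Spp1 were not identified. Clec9a shares 184 exonic bases on the same strand with Clec1b, which had up to 27699 counts, so its level is uncertain.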

Additional observations from a re-analysis of the deposited data

How the results depend on the processing

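Under the 17 alternatives, 0 of the 9 inflammasome components and 0 of the 35 other pathway genes were called. Nlrp3, Casp1 and Gsdmd stayed below 0 in all of them, and the other 6 changed sign in at least 1. DESeq2 called 15 genes in all, with Lpcat3 at -1.55 (adjusted p = 0.0028). The number of components that did not overlap ranged from 0 to 6 with each mouse left out and was 6 without both hepatocyte-rich libraries (WT 1 and Lpcat3 KOMac 2). Leaving out each mouse gave a set median of -0.31 to 0.01 and a hepatocyte difference between genotypes of 0.07 to 1.98, all on the log2 scale. With 3 mice a side, the intervals of 7 of the 9 components reach 1.39-fold or more in at least 1 direction. Counting error was not separated from the spread between mice for them.

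The values below are log2 fold changes, Lpcat3 KOMac against WT, whose sign changed with a setting, and none was called. DESeq2's size factors gave 0.0101 for Naip5 and 0.0066 for Brcc3, DESeq2 itself 0.0101 and 0.0057, and at least 10 counts in every library 0.0011 and 0.0043. Total counts gave 0.0427 for Nlrc4, 0.0472 for Nek7, 0.0734 for Naip5, 0.05001 for Naip6, 0.10 for Brcc3, 0.0536 for Dpp9 and 0.0765 for Nlrp6. Limma-voom gave 0.10 for Nlrp1b, 0.0190 for Nlrc4, 0.0068 for Naip6, 0.74 for Nlrp12 and 0.77 for Nlrp6. The hepatocyte covariate gave 0.40 for Nlrp1b, 0.15 for Nlrc4, 0.13 for Aim2, 0.0357 for Casp4, 0.19 for Naip5, 0.20 for Naip6 and 0.28 for Nlrp6. Without both hepatocyte-rich mice, Pycard was at -0.14, Nlrp12 at 1.63, Brcc3 at 0.0826, Gbp2 at -0.47, Irf8 at -0.11, Il18 at -0.17, Gsdme at -0.0916 and Nlrp6 at 1.89. The causes were not tested.

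The labels do not say whether mice with the same replicate number were paired. Their deviations from the genotype means correlated at -0.30, -0.60 and 0.36, which cannot decide it. With the replicate number as a block, 0 genes were called, the set median was -0.05, and signs changed for Nlrp1b (0.0322), Nlrc4 (0.0018), Naip6 (0.0068), Nlrp12 (1.18), Brcc3 (0.0038) and Nlrp6 (1.13).

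With each mouse left out in turn, signs changed within these ranges: Aim2 -0.31 to 0.0742, Brcc3 -0.0678 to 0.11, Casp4 -0.32 to 0.0533, Dpp9 -0.10 to 0.0391, Gbp2 -0.28 to 0.38, Gbp5 -0.38 to 0.11, Gsdme -0.0449 to 0.31, Il18 -0.13 to 0.27, Irf8 -0.0884 to 0.13, Naip2 -0.21 to 0.13, Naip5 -0.23 to 0.22, Naip6 -0.28 to 0.20, Nek7 -0.0763 to 0.0146, Nlrc4 -0.25 to 0.0913, Nlrp12 -1.25 to 2.62, Nlrp1b -0.49 to 0.30, Nlrp6 -0.60 to 2.14, P2rx7 -0.25 to 0.0571 and Pycard -0.16 to 0.17.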
